A study of Mus musculus with 14 samples.

Results

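H3K4me3 was examined at 6 genes of the STAT (signal transducer and activator of transcription) family, Stat2, Stat3, Stat4, Stat5a, Stat5b, and Stat6, in Lin-Sca1+cKit+ (LSK) bone marrow cells. The 6 genes were taken by name from 45217 mouse genes whose start could be placed, of which 21440 are protein-coding. LSK cells were sorted from C57BL/6J male mice kept on a diet with 60% (HFD mice) or 10% (LFD mice) of its kcal from fat for 16 to 20 wk from the age of 3 to 4 wk. Each H3K4me3 library, made by CUT&Tag (cleavage under targets and tagmentation) with the antibody ab8580, came with 1 list of peaks, giving 3 HFD-LSK and 4 LFD-LSK lists. The study names the assay CUT&Tag, whereas the sample titles read CUT&RUN. No transgene or deletion is named in the labels, and 7 IgG control libraries were not analyzed here. Nothing in the labels states whether the libraries of a group came from separate mice, so p-values measure only the spread between these lists.

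STAT proteins wait in the cytoplasm until a cytokine receptor and its Janus kinases phosphorylate them on a tyrosine. They then pair, enter the nucleus, and bind DNA, most of them at the gamma-activated site (GAS), whereas Stat2 works in a complex with Irf9 at the interferon-stimulated response element (ISRE). In the blood lineage, Stat5a and Stat5b transmit thrombopoietin, erythropoietin, and IL-3 signals, Stat3 transmits IL-6 and G-CSF signals, Stat4 transmits IL-12 signals in T and natural killer cells, and Stat6 transmits IL-4 signals. H3K4me3 is the trimethylated form of lysine 4 of histone H3, and it marks the starts of genes that are transcribed or held ready for transcription.

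The 5 genes other than Stat4 carried H3K4me3 at their start in 4 to 7 of the 7 lists, and Stat4 carried it inside the gene, in 6 lists. Counting a peak within 1 kb of the most upstream RefSeq start (the first start), Stat3 was called in 7 lists, Stat2, Stat5b, and Stat6 in 6, Stat5a in 4, and Stat4 in 0, which is 29 of 42 combinations of gene and list. Over all protein-coding genes, 53.0% of first starts were called in at least 1 list, 33.9% in at least 6, and 21.2% in all 7. When the peaks of the 7 lists that overlap or touch were joined into regions, the region that stands for each gene was called in 36 of 42 combinations, because Stat4 gained 6 lists and Stat5a gained LFD-LSK replicate 3. Within 1 kb of first starts, 41.0% of all combinations of a protein-coding gene and a list were called, which is the share to set beside 29 of 42. No share over all genes is given for the 36 of 42, where the Stat4 region was picked for being called in most lists.

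**Figure D1:**
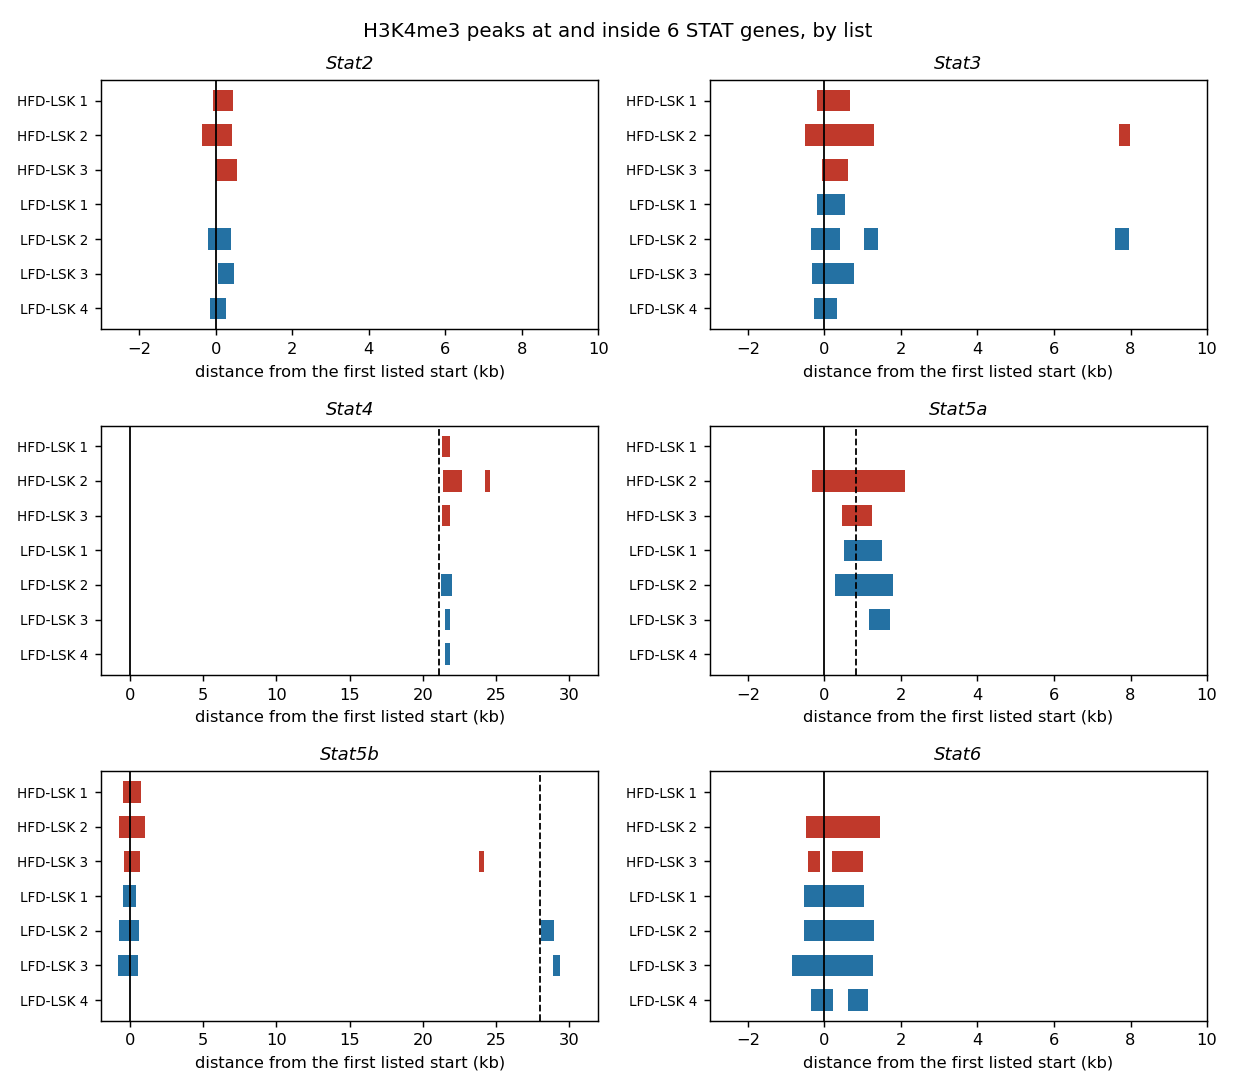
Peaks of each list (rows, red for HFD-LSK and blue for LFD-LSK) by distance in kb from the first listed start of each gene, in the direction of transcription. The solid line is the first start and the dashed line the second listed start. Stat4 has no peak at the first start and its peaks lie just past the second one, in 6 of 7 lists.

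Stat4 and Stat5a each have 2 listed starts that differ in their calls, and the 250 bases before each of these starts, from RefSeq on GRCm38.p6, are printed 5′ to 3′ with every CpG in capitals. The Stat5b sequence is set beside them as the member richest in CpG.
Stat4 first start, chr1:51986898-51987147, plus strand: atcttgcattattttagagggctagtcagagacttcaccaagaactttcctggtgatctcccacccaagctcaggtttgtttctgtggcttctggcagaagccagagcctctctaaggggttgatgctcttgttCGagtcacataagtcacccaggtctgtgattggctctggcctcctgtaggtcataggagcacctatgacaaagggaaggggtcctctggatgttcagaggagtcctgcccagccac
Stat4 second start, chr1:52007990-52008239, plus strand: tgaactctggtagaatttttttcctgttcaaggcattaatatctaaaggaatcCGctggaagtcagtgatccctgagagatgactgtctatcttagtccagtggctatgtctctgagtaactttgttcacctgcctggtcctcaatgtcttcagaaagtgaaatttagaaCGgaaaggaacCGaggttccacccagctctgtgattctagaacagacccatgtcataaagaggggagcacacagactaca
Stat5a first start, chr11:100859406-100859655, plus strand: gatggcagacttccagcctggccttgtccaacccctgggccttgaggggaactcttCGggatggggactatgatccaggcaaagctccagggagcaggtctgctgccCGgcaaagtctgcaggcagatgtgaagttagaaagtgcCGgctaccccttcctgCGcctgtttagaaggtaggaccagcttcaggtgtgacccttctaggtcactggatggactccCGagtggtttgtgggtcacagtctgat
Stat5a second start, chr11:100860234-100860483, plus strand: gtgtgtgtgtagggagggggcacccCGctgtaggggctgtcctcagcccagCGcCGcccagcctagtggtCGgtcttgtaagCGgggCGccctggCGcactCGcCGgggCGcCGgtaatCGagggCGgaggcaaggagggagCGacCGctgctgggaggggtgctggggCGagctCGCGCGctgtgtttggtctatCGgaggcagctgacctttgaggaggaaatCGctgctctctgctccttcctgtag
Stat5b first start, chr11:100850582-100850831, minus strand: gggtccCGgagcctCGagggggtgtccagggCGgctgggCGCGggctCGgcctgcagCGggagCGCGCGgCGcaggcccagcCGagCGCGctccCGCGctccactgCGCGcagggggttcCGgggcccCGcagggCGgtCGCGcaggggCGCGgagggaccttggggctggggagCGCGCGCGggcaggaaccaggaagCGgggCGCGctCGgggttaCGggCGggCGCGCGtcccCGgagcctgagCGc

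These 250 bases held 1 CpG at the Stat4 first start and 3 at its second start, 5 and 21 at the Stat5a starts, and 40 at the Stat5b first start, more than in 98.7% of 32851 listed promoters. Stat2 held 14, Stat3 13, and Stat6 6. Protein-coding first starts with no call in any list had a median of 3 CpG, and the median was 17 for those called in 6 lists and 20 for those called in 7. Of the first starts called in 6 lists, 2.48% had at most 3 CpG and 8.01% had at most 6. The Stat6 start was thus among the poorest in CpG of first starts called that often. The second Stat4 start, with 3 CpG, is not a first start, and these shares hold no later starts. Its 250 bases lie before that start, and the region marked at Stat4 begins 174 bp after it. At Stat5a the summits of the peaks lay at the start with more CpG, as described below.

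The GAS motif (TTCNNNGAA, which reads the same on both strands) was found in the 250 bases of 7.02% of all listed promoters and in none of the 9 listed promoters of the 6 genes. An ISRE core (GAAANNGAA, either strand) was found in 7.13% of all promoters and in 2 of the 9, neither overlapping a GAS motif.
Stat2, chr10:128270277-128270285, on the opposite strand, position -221 relative to the start: cctggtTTCAGTTTCctttcc
Stat4 second start, chr1:52008143-52008151, on the strand of the gene, position -97 relative to the start: tcttcaGAAAGTGAAatttag
Capitals mark the match, shown with 6 flanking bases on either side. A match of letters is a description and not evidence of binding.

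The identity of the cells was checked with markers of blood cell types. Of 6 LSK markers, Kit, Cd34, Meis1, and Gata2 were called at their first start in all 7 lists and Flt3 in 6, whereas Ly6a, which encodes the sort marker Sca1, was called in 0. All 5 T cell markers and all 5 granulocyte or monocyte markers were called in 0 lists. Cd79b of the B cell markers and Nkg7 of the natural killer markers were called in 3 lists, and the erythroid markers Klf1 and Tfrc in 5. The lists held 6921 to 13094 peaks, and no pair of them shared an identical peak. The number of fragments at the weakest summit, recovered from the fold and p of each peak, ranged from 4 to 21, and a list cannot show a mark weaker than that. LFD-LSK replicates 4 and 1 lacked 26.1% and 12.7% of the regions called in the other 6 lists, against 0% to 4.23% for the other 5 lists. Because each list averages over the sorted cells, fewer marked cells and less of the mark per cell cannot be told apart.

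Stat3 was the only member called in every list. Its gene spans chr11:100886806-100939594 on the minus strand, and the region (chr11:100938139-100940036) covers the start at 100939540 and that of the lncRNA Gm46295. Folds are the height of a summit over its local background and depend on the depth of a list, so each region was ranked within its list by its highest fold, with rank 1 the strongest. Stat3 ranked 1708.5, 2713, and 4269 in the HFD-LSK lists, taken in the order of their replicate numbers here and below, and 2976, 2613, 67.5, and 866 in the LFD-LSK lists. It stood in the upper 41.0% of the called regions of every list, and in LFD-LSK replicate 3 in the upper 0.688%, with 44 fragments and a fold of 16.7 at the summit. The peaks covered 863, 1791, and 685 bp in HFD-LSK and 734, 1121, 1098, and 613 bp in LFD-LSK. The summits lay 50 to 166 bp downstream of the start, the narrowest range of summit positions among the 5 genes marked at the start.

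Stat5a and Stat5b, which encode closely related proteins, lie head to head on chromosome 11 with first starts 9075 bp apart. Stat5b (chr11:100780731-100859004, minus strand) was marked around its first start at 100850581 and Stat5a (chr11:100859351-100885169, plus strand) around its second start at 100860484. The 2 regions, chr11:100849597-100851434 and chr11:100859342-100861763, are separate and 7907 bp apart. The gene spans, however, lie only 346 bp apart. In HFD-LSK replicate 2 and LFD-LSK replicate 2 the peak of the Stat5a region also came within 1 kb of the upstream bound of the Stat5b span. Stat5b ranked 3154.5, 9595, and 1203 in HFD-LSK and 3386.5, 3458, and 1203.5 in LFD-LSK replicates 1, 2, and 3, with no call in LFD-LSK replicate 4. Stat5a ranked 1471 and 2672.5 in HFD-LSK lists 2 and 3, and LFD-LSK replicates 1, 2, and 3 gave 3863.5, 2024.5, and 7047, with no call in HFD-LSK replicate 1 or LFD-LSK replicate 4. Thus HFD-LSK replicate 2 held the best Stat5a rank and the weakest called Stat5b rank, and both genes were missing from LFD-LSK replicate 4, the list with the fewest peaks.

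The Stat5a summits lay 820 to 1161 bp downstream of the first start and from -8 to 333 bp relative to the second. A peak came within 1 kb of the first start in 4 lists and of the second in 5. Stat5a peaks covered 2422 and 782 bp in these HFD-LSK lists and 1004, 1503, and 563 bp in the LFD-LSK ones. Stat5b covered 1225, 1753, and 1094 bp in HFD-LSK and 927, 1429, and 1358 bp in LFD-LSK replicates 1, 2, and 3, and its summits lay from -153 to 244 bp relative to its first start.

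By its median width percentile over called lists, Stat6 carried the widest domain of the family, although Stat5a stood higher in HFD-LSK replicate 2 (90.4 against 79.7) and HFD-LSK replicate 1 had no call at Stat6. Its gene spans chr10:127642955-127660987 on the plus strand, and the region chr10:127642150-127644440 surrounds the start at 127642986. HFD-LSK replicates 2 and 3 covered 1935 and 1109 bp, the 4 LFD-LSK lists covered 1593, 1847, 2120, and 1100 bp. Among the called regions of protein-coding starts of the same list these widths stood at percentiles 66.7 to 95.5. It ranked 1471 and 6987.5 in those HFD-LSK lists and 3502, 5952.5, 2985, and 3718.5 in LFD-LSK. In HFD-LSK replicate 3 and LFD-LSK replicate 4 the domain was split into 2 peaks on either side of a gap.

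HFD-LSK replicate 1 stands out at Stat6, and it also lacked a call at Stat5a, as did LFD-LSK replicate 4. In HFD-LSK replicate 2 the summits of both genes held 67 fragments with a fold of 26.2, and this was the highest fragment count of the family in any list, whereas HFD-LSK replicate 1 had no peak at either gene. Stat6 was 1 of only 116 regions, 2.57% of 4511, that were called in the other 6 lists and missing from HFD-LSK replicate 1.

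Stat2, whose protein forms the interferon-induced complex with Irf9, carried a narrow mark. Its gene spans chr10:128270498-128292853 on the plus strand, and the region chr10:128270141-128271068 was called in all lists but LFD-LSK replicate 1. The peaks covered 510, 795, and 552 bp in HFD-LSK and 587, 411, and 399 bp in LFD-LSK replicates 2, 3, and 4, at percentiles 8.94 to 25.9 of the protein-coding starts of the same list. The ranks were 4443, 5984.5, and 10300.5 in HFD-LSK and 4292, 9057.5, and 4113 in LFD-LSK replicates 2, 3, and 4. Stat2 and Stat6 lie on the same chromosome with starts 627512 bp apart.

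Stat4 was the exception in position. The gene spans chr1:51987106-52107189 on the plus strand, the first start is at 51987148, and no list had a peak within 1 kb of it. The marked region, chr1:52008414-52009801, begins 21266 bp downstream of the first start and 174 bp after the second RefSeq start at 52008240. Summits lay 397 to 626 bp past that second start. The peaks covered 589, 1249, and 515 bp in HFD-LSK and 708, 328, and 305 bp in LFD-LSK replicates 2, 3, and 4, and LFD-LSK replicate 1 had no peak. The ranks were 8206.5, 10123.5, and 8531 in HFD-LSK and 6851, 8773, and 5629.5 in LFD-LSK. At the summits, 12 to 35 fragments were counted, with folds of 4.08 to 7.87.

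Regions inside a gene and away from every first start numbered 2748, of which 436 lay within 1 kb of a later listed start, as at Stat4. These 436 were called in a median of 5 lists and 38.8% of them in 6 or 7, against a median of 1 list and 11.9% for the 2312 regions away from every listed start. The mean rank percentile at Stat4, 81.5, was exceeded by only 0.592% of the regions at later starts that were called in 6 or 7 lists and by 0.468% of the regions at first starts called that often, so among regions called in 6 or 7 lists Stat4 stood near the bottom by fold. With regions called in fewer lists included, the median rank percentile was 66.1 for the 436 regions and 78.8 for the 2748, nearer to Stat4.

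Placing the ranks as percentiles of the called regions of a list (0 strongest, 100 weakest), the order over called lists was Stat3 (22.7 ± 14.0, SD, n = 7), Stat5b (35.5 ± 23.5, n = 6), Stat5a (36.0 ± 25.5, n = 5), Stat6 (44.7 ± 19.9, n = 6), Stat2 (64.2 ± 22.7, n = 6), and Stat4 (81.5 ± 9.38, n = 6). The median of 10252 regions at protein-coding starts was 52.1. For none of the 5 pairs of neighbours in this order did the difference pass the test (exact sign-flip permutation test within lists, two-sided, adjusted p = 0.469 to 1 over the 5 pairs), although 3 of the pairs share only 5 lists, where the smallest possible p is 0.0625. The step from Stat6 to Stat2 was 23.2 percentile points ± 29.7 (SD, n = 5). By median width percentile the order was different, with Stat6 at 88.9, Stat5b at 73.0, Stat5a at 70.4, Stat3 at 55.8, Stat4 at 19.1, and Stat2 at 16.4. Stat3 thus combined the highest fold rank with a middling width.

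The comparison of HFD-LSK with LFD-LSK asks whether the diet changed H3K4me3 at these genes. For none of the 6 genes did the difference in rank pass the test. Where a list had no call, the region was given the average of all ranks left over after the called regions, and the difference in group means was tested over the 35 ways to split 7 lists into 3 and 4, where the smallest possible p is 0.0286. Over all 14659 regions, 0.614% had an exact permutation p below 0.05 with a rank nearer the top in HFD-LSK and 1.38% nearer the top in LFD-LSK, and none passed after Benjamini-Hochberg adjustment over all regions (lowest adjusted p = 0.938). Of the 6 genes, 0 had a p below 0.05 in either direction, and in all 6 the values of the groups overlapped.

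**Figure D2:**
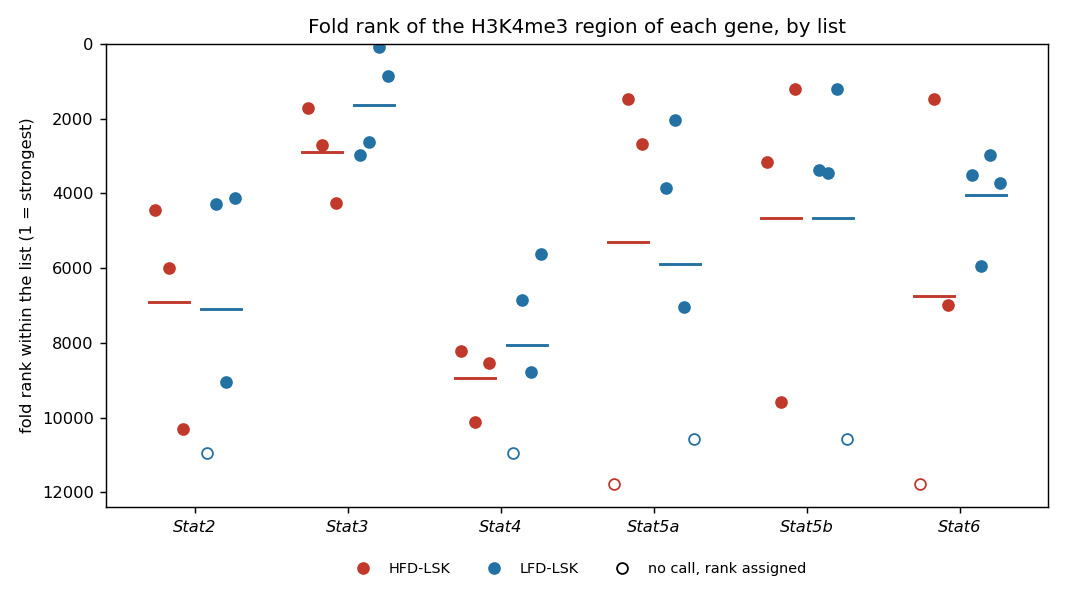
Fold rank of the region of each gene within each list (vertical axis, 1 is the strongest) for HFD-LSK (red) and LFD-LSK (blue). Each point is a list, open points are ranks assigned where there was no call, and bars are group means. The groups overlap at every gene, and the Stat4 points lie from rank 5629.5 to 10956, the last of them assigned.

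The largest difference was at Stat6, with a mean rank of 6749 ± 5163 (SD, n = 3) in HFD-LSK and 4040 ± 1312 (n = 4) in LFD-LSK (exact permutation test, two-sided, p = 0.4). It rests on the rank of 11789 assigned to HFD-LSK replicate 1, and without that list the difference fell from 2710 to 190 ranks. At Stat3 the means were 2897 ± 1290 and 1631 ± 1391, a difference of 1266 (exact permutation p = 0.257). At Stat4 they were 8954 ± 1026 and 8052 ± 2328, a difference of 901 (exact permutation p = 0.543), and requiring a −log10 q of 5 for every peak made it -188. The differences at Stat2, Stat5a, and Stat5b were -195, -569, and -7.42 ranks, with exact permutation p of 0.914, 0.857, and 0.971. After adjustment over all regions p lay between 0.938 and 0.995 for the 6 genes. The HFD-LSK lists ranked 8918 to 12998 called regions and the LFD-LSK lists 6510 to 10164, so ranks run further in HFD-LSK. With ranks as percentiles of each list 0 of 6 genes had a p below 0.05 as well.

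Calls were set side by side for the diets too, but the test could not decide on a difference. With 3 and 4 lists and so few lists without a call, no gene could reach a p below 0.05. Of 3 HFD-LSK and 4 LFD-LSK lists, Stat2, Stat4, and Stat5b were called in 3 and 3, Stat5a in 2 and 3, Stat6 in 2 and 4, and Stat3 in all (Fisher's exact test, two-sided, p = 0.429 for Stat6 and 1 for the other 5 genes). The p for Stat6 is the smallest that its number of calls allows.

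Width was tested across the 4395 regions called in all 7 lists, which among the members leaves Stat3 alone. Of these regions, 3.57% were wider in HFD-LSK and 0% were wider in LFD-LSK at an exact permutation p below 0.05, and the lowest adjusted p was 0.707. Stat3 covered 1113 ± 594 bp (SD, n = 3) in HFD-LSK and 892 ± 257 bp (n = 4) in LFD-LSK, a difference of 221.5 bp (exact permutation test, two-sided, p = 0.629). Without HFD-LSK replicate 2 the sign turned, to -117.5 bp in the same region and to -28.25 bp when the regions were joined anew from the other 6 lists. Over called lists the means were 619 ± 154 and 466 ± 105 bp at Stat2, 784 ± 404 and 447 ± 226 bp at Stat4, 1602 ± 1160 and 1023 ± 470 bp at Stat5a, 1357 ± 349 and 1238 ± 272 bp at Stat5b, and 1522 ± 584 and 1665 ± 434 bp at Stat6, for HFD-LSK and LFD-LSK in that order. HFD-LSK replicate 2, the list with the most peaks and with the highest median peak width (1198 bp, against 525 to 961 bp in the others), was the widest list at Stat2, Stat3, Stat4, Stat5a, and Stat5b. Leaving it out brought the HFD-LSK mean below the LFD-LSK mean at Stat5a (782 bp, n = 1, against 1023 bp) and Stat5b (1159.5 bp, n = 2, against 1238 bp). At Stat2 and Stat4 the HFD-LSK mean stayed above, with differences of 65.3 and 105 bp, and at Stat6 it stayed below, with -556 bp.

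**Figure D3:**
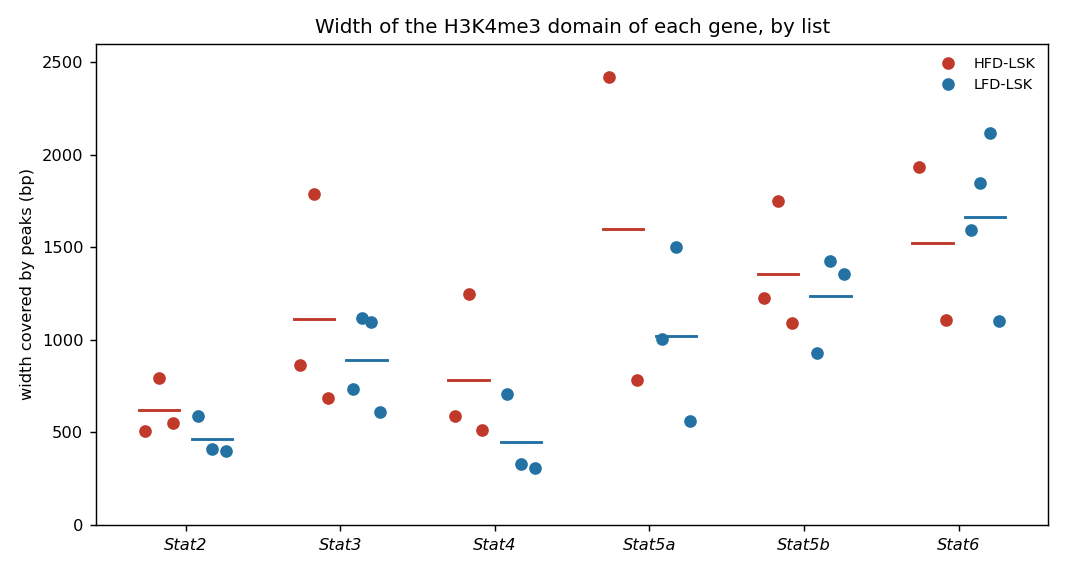
Width in bp covered by the peaks of each list in the region of each gene, for HFD-LSK (red) and LFD-LSK (blue). Each point is a list with a call and bars are means over those lists. Stat2 and Stat4 reach at most 1249 bp, and Stat5a ranges from 563 to 2422 bp.

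Comparing Stat4 with the other members within each list keeps both sides at 1 depth. Stat4 ranked below the median of the others in 6 of 6 lists with a Stat4 call, at 8206.5 against 3154.5, 10123.5 against 2713, and 8531 against 4269 in HFD-LSK, and at 6851 against 3458, 8773 against 2985, and 5629.5 against 3718.5 in LFD-LSK replicates 2, 3, and 4. The mean difference was 4636 ranks ± 1914 (SD, n = 6; exact sign-flip permutation test, two-sided, p = 0.03125, the smallest that 6 lists allow). Stat4 was set apart because of where these same lists mark it, and the 6 values are of the same gene. The p therefore measures only how far the lists agree on that contrast. Gene by gene, the other member ranked nearer the top in 24 of 26 comparisons, and the exceptions were Stat2 in HFD-LSK replicate 3 and in LFD-LSK replicate 3.

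Stat4 peaks were also narrower. They covered 589 against 863 bp, 1249 against 1791 bp, and 515 against 782 bp in HFD-LSK, and 708 against 1429 bp, 328 against 1098 bp, and 305 against 613 bp in LFD-LSK, with the median of the other members given second. Stat4 was narrower in 6 of 6 lists, with a mean difference of -480 bp ± 230 (SD, n = 6; exact sign-flip permutation test, two-sided, p = 0.03125), and the other member was wider in 23 of 26 comparisons. The p for width, like that for rank, measures only how far the lists agree. Both differences kept their direction when any list was left out, but with 5 lists the smallest possible p is 0.0625. Stat2, which is marked at its start, was the member nearest to Stat4, with 542 ± 145 bp (SD, n = 6) against 616 ± 346 bp, and with a rank percentile 17.3 points ± 22.1 (SD, n = 6) nearer the top (exact sign-flip permutation p = 0.125, adjusted p = 0.469).

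**Figure D4:**
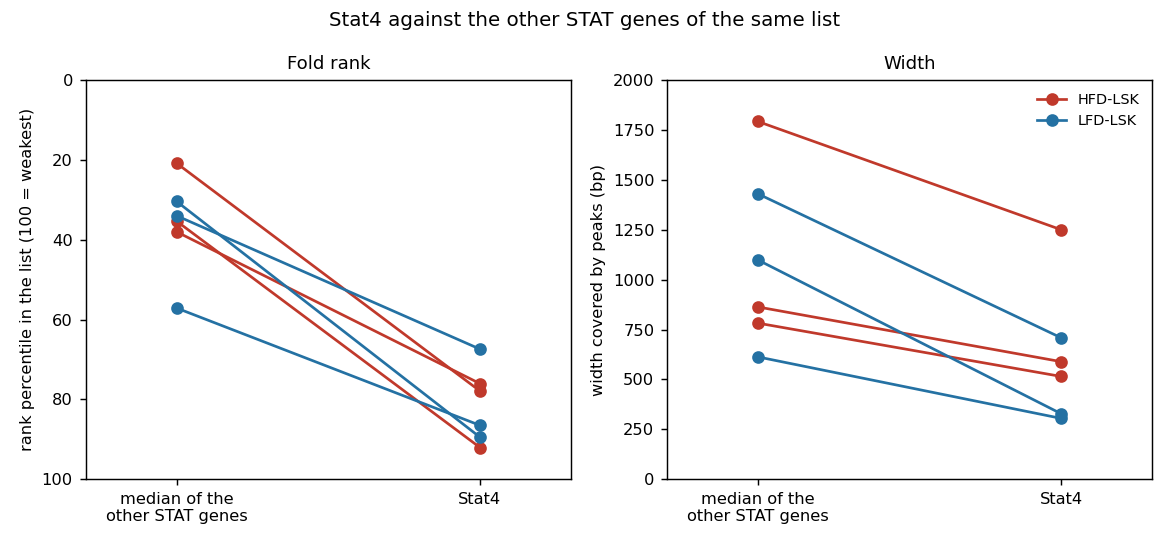
Stat4 beside the median of the other STAT genes called in the same list, joined by a line, for rank percentile (left, 100 is the weakest) and width in bp (right), in the 6 lists with a Stat4 call. Every line falls toward Stat4 in both panels, in HFD-LSK (red) and LFD-LSK (blue) alike.

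Inside the genes and away from the first start, 14 peaks were called, of which 6 lay outside the regions described. Stat3 had 1 peak in HFD-LSK replicate 2 and 1 in LFD-LSK replicate 2, with summits 7777 and 7882 bp into the gene, at chr11:100931551-100931837 and chr11:100931571-100931947, with 13 fragments at each summit. Stat5b had 3 single peaks, at chr11:100826380-100826747 in HFD-LSK replicate 3 with 4 fragments and at chr11:100821631-100822526 and chr11:100821170-100821684 in LFD-LSK replicates 2 and 3 with 14 and 10 fragments. The last 2 lay within 1 kb of the second Stat5b start at 100822570, which no HFD-LSK list marked. Stat4 had a second internal peak in HFD-LSK replicate 2, at chr1:52011422-52011710. Each of the 6 peaks stood between percentiles 90.0 and 99.3 of its list by fold, and Stat2 and Stat6 had none.

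The rest of the pathway was described with 58 genes grouped by role. Of them, 35 (60.3%) were called at their first start in 6 or 7 lists, against 33.9% of all protein-coding genes, and 6 in none. All 4 Janus kinases, which phosphorylate STAT proteins, were called in 6 or 7 lists, as were 10 of 13 inhibitors, 4 of 5 nuclear partners, 9 of 16 target genes, and 8 of 20 receptor chains. The 6 genes with no call were the receptor chains Ifngr2 (interferon gamma), Il2rb (IL-2 and IL-15), Il7r (IL-7), Csf2ra (GM-CSF), and Lepr (leptin), together with the phosphatase gene Ptpn6, which had a peak elsewhere in the gene in 5 lists.

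**Figure D5:**
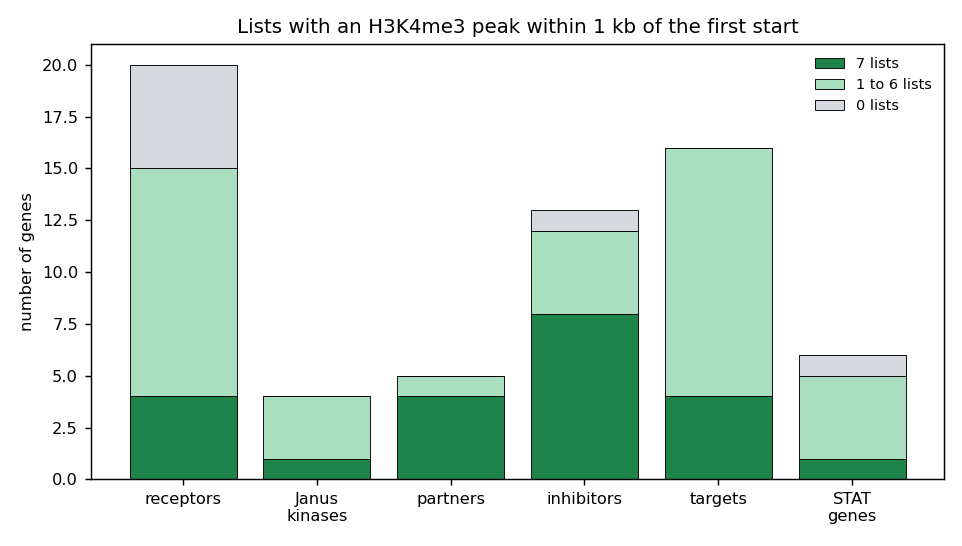
Number of genes of each role in the JAK-STAT pathway (bars) by the number of lists with a peak within 1 kb of the first start, with the 6 STAT genes on the right. All 7 lists called 8 of the 13 inhibitors, 4 of the 5 partners, and 1 of the 6 STAT genes, and 5 of the 20 receptor genes had no call.

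Of the 52 pathway genes with a region, 0 had an exact permutation p below 0.05 with a rank nearer the top in HFD-LSK and 3 had one nearer the top in LFD-LSK, beside 0.614% and 1.38% of all regions, and none passed after adjustment over all regions (adjusted p = 0.938). The median difference in rank, HFD-LSK minus LFD-LSK, was 452 over the pathway genes and 112 over all regions. The 3 genes, named here after their values were seen, were Ifnar2 of the type I interferon receptor, Ifngr1 of the interferon gamma receptor, and the STAT inhibitor Pias1. At Ifnar2 the ranks were 3656.5, 2322.5, and 2996 in HFD-LSK and 2069, 979, 1323.5, and 1951.5 in LFD-LSK. At Ifngr1 they were 3509, 2157, and 11155.5 against 1347.5, 1628.5, 1726.5, and 39, and at Pias1 4527, 6457, and 7843 against 4128, 4452.5, 3840, and 4113. The groups do not overlap at these 3 genes, but leaving out any list leaves no p that could fall below 0.05. The groups also do not overlap at the inhibitor gene Socs7, which ranked nearer the top in HFD-LSK (exact permutation p = 0.0571). The share of all regions without such overlap is not given here. Ranks run further in the HFD-LSK lists, and whether the separation holds with ranks as percentiles was not tested.

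The Janus kinases overlapped between the diets. Jak2, which serves the erythropoietin and thrombopoietin receptors, had a mean rank of 4577 ± 1875 (SD, n = 3) in HFD-LSK and 1929 ± 1909 (n = 4) in LFD-LSK (exact permutation p = 0.143). Jak1 had 1789 ± 836 and 4297 ± 4247 (exact permutation p = 0.457), Jak3, which serves the common gamma chain, 6935 ± 3527 and 6045 ± 3242 (exact permutation p = 0.629), and Tyk2, the kinase with the largest difference, 4617 ± 1879 and 7481 ± 2376 (exact permutation p = 0.171). Jak1, Jak3, and Tyk2 had no call in LFD-LSK replicate 4, so their LFD-LSK means hold 1 assigned rank. In the other roles the largest differences were at the G-CSF receptor gene Csf3r (2980 ± 1379 against 7506 ± 2739, exact permutation p = 0.0857), the inhibitor Socs7 (821 ± 886 against 5299 ± 3537, exact permutation p = 0.0571), the coactivator gene Ncoa1 (5005 ± 5090 against 2269 ± 2293, exact permutation p = 0.429), and the survival gene Bcl2l1 (6947 ± 5252 against 2847 ± 1834, exact permutation p = 0.257). Csf3r and Socs7 were also without a call in LFD-LSK replicate 4.

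Other protein-coding gene starts with a region numbered 11349, some of which share a region. Among them, the genes with ranks most like those of the members other than Stat4, by mean absolute difference over the 7 lists, were as follows. They were Ube4b for Stat3 (474 ranks), Ss18l2 for Stat5b (524), Slc20a2 for Stat6 (769), Ppan for Stat5a (810.5), and Zfp330 for Stat2 (862).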

How the data were processed

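Per the labels, the authors processed reads with Trim Galore, Bowtie2, and Picard, called peaks with MACS2, and used GRCm38. The methods of the study name GRCm39 and SEACR instead, and the versions of these tools are not given in the sources used here. The peaks fall on gene starts of GRCm38, so that build was used. Each deposited list was called on 1 library. The authors deposited, peak by peak, a fold (a ratio of summit height over background), a −log10 p-value, a −log10 q-value, a score of 10 times −log10 p, and the offset of the summit in bp. The lists hold no counts, so the DESeq2 test of the study could not be repeated.

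Gene starts came from RefSeq promoters of GRCm38.p6, and for genes without one from the RefSeq gene span, with the strand by symbol from GENCODE vM39. A start was found for 45217 of 49943 genes. Regions, ranks, and widths were computed in Python 3.11.15 with numpy and pandas, by exact permutation over lists with Benjamini-Hochberg adjustment over all regions. A region at the first start stood for a gene, and for Stat4, without one, the region inside the gene called in most lists. Fragments at summits were recovered by inverting the formulas of MACS2, and a whole number fitted 100% of peaks within a relative tolerance of 5e-04. The steps were tested on simulated lists. The members, the pathway and marker lists, and the tests were chosen with earlier results of these data known. Named genes were the members, the Janus kinases, the pathway genes not called in any list, the gene with the largest rank difference in each role, and the gene most like each member. Ifnar2, Ifngr1, and Pias1 were named after their values were seen. A marker gene and the gene most like Stat4 are not reported here. Alternatives were a −log10 q of at least 5, equal numbers of peaks, joining within 500 bp, calls limited to those over 50% or more of a region, ranks by −log10 p or percentile, 3 kb windows, replicate pairs, and leaving out each list.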

Additional observations from a re-analysis of the deposited data

How the results depend on the processing

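No p below 0.05 between the diets was found under any alternative run, in rank for the 6 genes or in width for Stat3, nor in width for the 6 genes where a list without a call counted as 0 bp. The Stat3 width could not be compared under 50% cover, where Stat3 lacked a call in some lists. Without 1 list or with the replicate block no such p could be reached, so these settings say nothing on stability. Of the 77 values of the main comparisons, 55 stayed, 4 counts moved, and 18, all Stat4 differences, lost their p below 0.05. Those 18 come from settings with too few lists with a Stat4 call for such a p. The 55 include counts of genes passing from settings where no such p could be reached, so the tally is no measure of stability. Of the other 402 values, for single genes and role counts, 359 kept their direction and side of the threshold or moved by less than the spread between lists. The Stat4 differences kept their direction throughout. In rank they were 5194 with a −log10 q of at least 5 (exact permutation p = 0.125), 2646.5 with equal numbers of peaks (p = 0.5, exact), and 5185 where a call had to cover 50% of the region (p = 0.5, exact). In width they were -490, -514.5, and -631.5 bp. These settings left 4, 2, and 2 lists with a Stat4 call, too few for a p below 0.05. Leaving out each list gave 4144 to 5181 ranks and -523 to -422.4 bp.

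Calls at first starts numbered 19 where a call had to cover 50% of the region, 28 with a −log10 q of at least 5, 25 with equal numbers of peaks, and 30 within 3 kb, and 24 to 26 when a list was left out. Chosen after seeing the data, any listed start gave 36 and the bound of the gene span 25, and internal peaks numbered 8 with a −log10 q of at least 5, 2 with equal numbers of peaks, 5 away from every listed start, and 10 to 14 when a list was left out. For any listed start and the bound of the gene span, no share over all genes is given. Also chosen after seeing the data, pathway genes with p below 0.05 nearer the top in LFD-LSK numbered 1 under 50% cover, and 1 gene was nearer the top in HFD-LSK with equal numbers of peaks.

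Small differences between the diets changed sign. Under a −log10 q of at least 5 they were 672 at Stat2, -188 at Stat4, and 461 at Stat5b. Stat5b gave 224 with equal numbers of peaks, 39.5 with joining within 500 bp, and 776 under 50% cover, where Stat5a gave 262 and ranked 39.6 percentile points nearer the top than Stat5b, written -39.6. Stat2 gave 591 by −log10 p, and Stat4 gave -3.85 percentile points. Leaving out each list gave -1760 to 1089 ranks at Stat2, -3809 to 1260 at Stat5a, -2385 to 1968 at Stat5b, and -28.25 to 435.5 bp for the Stat3 width. The steps from Stat5b to Stat5a and from Stat5a to Stat6 ranged from -14.2 to 16.1 and from -1.99 to 18.0 percentile points. The cause of these changes was not tested.

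Whether replicate numbers pair the libraries could not be settled. Correlations of rank deviations were 0.0846, 0.0176, and 0.00366 for same-numbered lists. For other pairs of an HFD-LSK and an LFD-LSK list they ran from -0.0927 to 0.0971, the highest for HFD-LSK replicate 3 with LFD-LSK replicate 4. The paper states that a further cohort was added for LSK cells and that its test took account of batch and pairing. The main tests here took no account of cohort. With the replicate block, which leaves out LFD-LSK replicate 4 and cannot give a p below 0.25, 0 genes passed in rank and 0 in width, and the differences were 999 at Stat5a and 1968 at Stat5b. The lists give no depth beyond the fragments at called summits, so a mark below 4 to 21 fragments could not be seen.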
